A study of Mus musculus with 5 samples.

Results

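The 10 mast cell genes Fcer1a, Ms4a2, Fcer1g, Cpa3, Cma1, Tpsb2, Tpsab1, Mcpt4, Hdc and Gata2 were read by symbol from a table of 24062 genes counted in 5 RNA-seq libraries of mouse mitral valve leaflets, and all 10 were found in it. They were picked as a set because Fcer1a and Mcpt4 differed in opposite ways between the groups, so the values of that comparison are given for them as a description, with no test. The study asked how loss of Ift88, a gene of the transport machinery that builds cilia, alters the leaflet transcriptome. By their titles, 2 libraries were wild type (WT) and 3 were knockout (KO). Both groups carried NfatC1Cre, a Cre driver active in the endocardial lineage, so controls had the driver too. The genotype fields write Ift88f/f for WT and Ift88+/+ for KO, the reverse of what the titles imply, and the groups here follow the titles. The sources used here do not give strain, age, sex, the part of Ift88 deleted or whether each library was 1 animal, so the spread within a group may in part be technical.

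Mast cells are tissue-resident cells of the haematopoietic lineage that store histamine and proteases in granules and release them when IgE bound to their surface meets antigen. Their high-affinity IgE receptor is built from an alpha chain that binds IgE (Fcer1a), a beta chain that amplifies the signal (Ms4a2) and a gamma chain that carries it into the cell (Fcer1g). The granules of connective tissue mast cells hold the chymases encoded by Cma1 and Mcpt4, the tryptases encoded by Tpsb2 and Tpsab1, and carboxypeptidase A3 (Cpa3). Hdc encodes the enzyme that makes histamine, and Gata2 a transcription factor that mast cells need and that endothelium also expresses. Mast cells are found in heart valves and along the vessels of the heart.

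Libraries held between 23361414 and 53789026 counted reads, and between 13379 and 15212 genes had a read. Levels are read counts scaled to a common library size with TMM (CPM), and 3 reads correspond to between 0.052 and 0.123 CPM in these libraries. Ift88, the check of the titles, read 7.54 and 19.8 CPM in WT replicates 1 and 2. KO replicates 1, 2 and 3 read 3.001, 3.92 and 0.409, each below both WT libraries, and the gene was not called (edgeR adjusted p = 0.81). WT replicate 2 stood apart in its makeup. The 9 cardiomyocyte markers summed to 99 CPM there and to between 26000 and 53000 in the other libraries. WT replicate 1 was the highest in these markers and the lowest in endothelial markers (405 CPM summed over 10 genes, against 1760 to 2830 elsewhere). In bulk RNA fewer cells of a type and less RNA per cell cannot be told apart, and that holds for every level below.

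Of 10 markers of mast cells, between 7 and 9 had a read in each library. The markers were Kit, Slc18a2, Mrgprb2 and the members Cpa3, Fcer1a, Ms4a2, Hdc, Tpsb2, Cma1 and Mcpt4. Any read counted, and between 13379 and 15212 of all 24062 genes had a read in these libraries. Kit, the receptor for stem cell factor on mast cells, which melanocytes also carry, was at 14.04 and 20.4 CPM in WT replicates 1 and 2 and at 53.7, 21.6 and 7.82 in KO replicates 1, 2 and 3. Slc18a2, the transporter that loads histamine into granules, named after its values were seen, lay between 11.8 and 29.4 CPM. Mcpt8, the defining protease of basophils, which also carry the IgE receptor, had 0 reads in every library. It was the only 1 of 7 basophil markers without a read in any library. Prss34 had 33 reads in WT replicate 2 and 31 in KO replicate 2, and Cd200r3 had 75 and 109 in these libraries. Both were named after their values were seen. The part of basophils in the IgE receptor reads was not tested. Every library held reads of several mast cell genes. Fcer1g is shared with macrophages and Gata2 with endothelium, so those levels are given beside the markers of these cells.

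The genes lie on 7 chromosomes (GENCODE M21 on GRCm38). On chromosome 14 the chymase genes Cma1 (55941451 to 55944675) and Mcpt4 (56059629 to 56062313) are 114954 bp apart on the minus strand. On chromosome 17 the tryptase genes Tpsab1 (25343245 to 25345562, minus strand) and Tpsb2 (25366305 to 25369098, plus strand) are 20743 bp apart. Fcer1a is on chromosome 1 at 173221284 to 173227214, minus strand, and no exon of the 10 genes overlaps an exon of another annotated gene. The promoters of the receptor chain genes Fcer1a and Ms4a2 and of the chymase genes Mcpt4 and Cma1 are shown because the alpha chain and Mcpt4 differed in opposite ways between the groups, each beside its partner chain or neighbouring gene. Each is the 250 bases before the RefSeq start on GRCm38.p6, written 5′ to 3′ on the gene's strand. The regions are chr1:173227230-173227479, chr19:11623720-11623969, chr14:56062311-56062560 and chr14:55944676-55944925, all on the minus strand. Capitals mark matches to the GATA motif spelled AGATAA with variants TGATAA and AGATAG and also TGATAG, on either strand. They also mark the letters CATGTG, or else CACGTG, on either strand, an E-box that the mast cell factor MITF can bind.
Fcer1a: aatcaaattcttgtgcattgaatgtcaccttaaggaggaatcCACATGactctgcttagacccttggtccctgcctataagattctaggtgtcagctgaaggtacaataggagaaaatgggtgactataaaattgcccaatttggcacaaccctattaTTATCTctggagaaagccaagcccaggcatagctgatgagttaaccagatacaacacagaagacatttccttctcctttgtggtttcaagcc
Ms4a2: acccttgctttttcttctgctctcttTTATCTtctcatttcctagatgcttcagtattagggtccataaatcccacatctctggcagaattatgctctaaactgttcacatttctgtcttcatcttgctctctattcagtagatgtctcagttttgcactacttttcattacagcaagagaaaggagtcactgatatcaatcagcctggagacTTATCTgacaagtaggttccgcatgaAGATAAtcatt
Mcpt4: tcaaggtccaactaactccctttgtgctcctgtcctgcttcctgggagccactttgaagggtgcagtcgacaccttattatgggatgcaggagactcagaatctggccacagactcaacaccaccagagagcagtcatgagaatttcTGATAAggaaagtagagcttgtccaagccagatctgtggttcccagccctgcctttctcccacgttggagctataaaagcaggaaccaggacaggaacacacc
Cma1: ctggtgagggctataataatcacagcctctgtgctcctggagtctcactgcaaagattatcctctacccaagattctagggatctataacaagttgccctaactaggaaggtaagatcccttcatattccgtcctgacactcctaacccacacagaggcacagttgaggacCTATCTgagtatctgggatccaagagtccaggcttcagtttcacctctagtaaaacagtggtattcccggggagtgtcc

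Of the 8 genes with a promoter in the RefSeq table, 6 held a GATA match, namely these 4, Cpa3 and Hdc. Over all 32851 promoters of the table, 26.5% held one. Counted by gene, as for the members, 8039 of 27025 genes had a promoter with a match. The Fcer1a match begins 92 bases and the Mcpt4 match 103 bases before the start, and Ms4a2 has 3 matches, at 224, 37 and 11 bases. The E-box was found in Fcer1a alone of the 8, 208 bases before the start, and in 17.6% of all promoters (5338 of 27025 genes). These are matches of letters, and no binding was measured.

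Fcer1a, the IgE-binding chain, had reads in both WT libraries and in no KO library. WT replicate 1 had 98 reads (3.73 CPM, 95% exact Poisson interval 3.03 to 4.55) and WT replicate 2 had 240 (4.16 CPM, 3.65 to 4.72), while KO replicates 1, 2 and 3 had 0 each, with upper limits of 0.117, 0.087 and 0.151 CPM. The groups did not overlap, and the WT mean of 3.95 ± 0.304 CPM (SD, n = 2) was at least 129-fold above a floor of 3 reads over the KO group. Poisson intervals and floors cover counting error only, since the amplified reads carry no molecular identifiers. Of all 24062 genes, 2 reached at least 3 CPM in both WT libraries without a read in KO, namely Fcer1a and Oprl1. The reverse pattern, no read in WT and at least 3 CPM in every KO library, took 5. The threshold was set after these values were seen and lies just under those of Fcer1a. The count therefore does not measure how rare the pattern is.

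Among the 8 genes read in both WT libraries, Fcer1a had the most even level. WT replicate 2 was 1.12 times WT replicate 1 for Fcer1a, against 6.77 times for Fcer1g, 8.65 for Tpsab1, 10.2 for Cpa3, 11.7 for Hdc, 13.9 for Gata2, 94.3 for Tpsb2 and 136 for Cma1. Ms4a2, the beta chain, had 20 reads in WT replicate 2 (0.347 CPM, 0.212 to 0.535) and 0 in each of the other 4 libraries. It did not pass the filter on low counts, and its KO libraries, at 0, overlapped WT replicate 1. Fcer1a therefore had reads in WT replicate 1 where Ms4a2 and Mcpt4 had none.

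Fcer1g, the signalling chain that Fc receptors of macrophages also use, was read in every library. Its level was 7.23 and 48.9 CPM in WT replicates 1 and 2 and 29.98, 17.8 and 27.1 in KO replicates 1, 2 and 3. All 3 KO libraries lay between the WT libraries (means 28.1 ± 29.5, SD, n = 2, against 24.97 ± 6.35, SD, n = 3). The 12 macrophage markers summed to 244 and 479 CPM in WT and to 378, 213 and 406 in KO. Fcer1g and this sum both had their highest value in WT replicate 2, but the lowest lay in WT replicate 1 for Fcer1g and in KO replicate 2 for the sum. Among receptors that signal through Fcer1g, Fcgr3 had 17.1 and 91.7 CPM in WT, against 45.9, 31.4 and 35.4 in KO, also with its extremes in the WT libraries. The share of Fcer1a in the reads of both chains was 34.0% in WT replicate 1 (exact Clopper-Pearson interval 28.6 to 39.8) and 7.84% in WT replicate 2 (6.91 to 8.84). With 949, 756 and 662 Fcer1g reads in KO replicates 1, 2 and 3, the absence of Fcer1a allowed shares of up to 0.388, 0.487 and 0.556%. What part macrophage RNA had in the Fcer1g level was not tested.

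**Figure D1:**
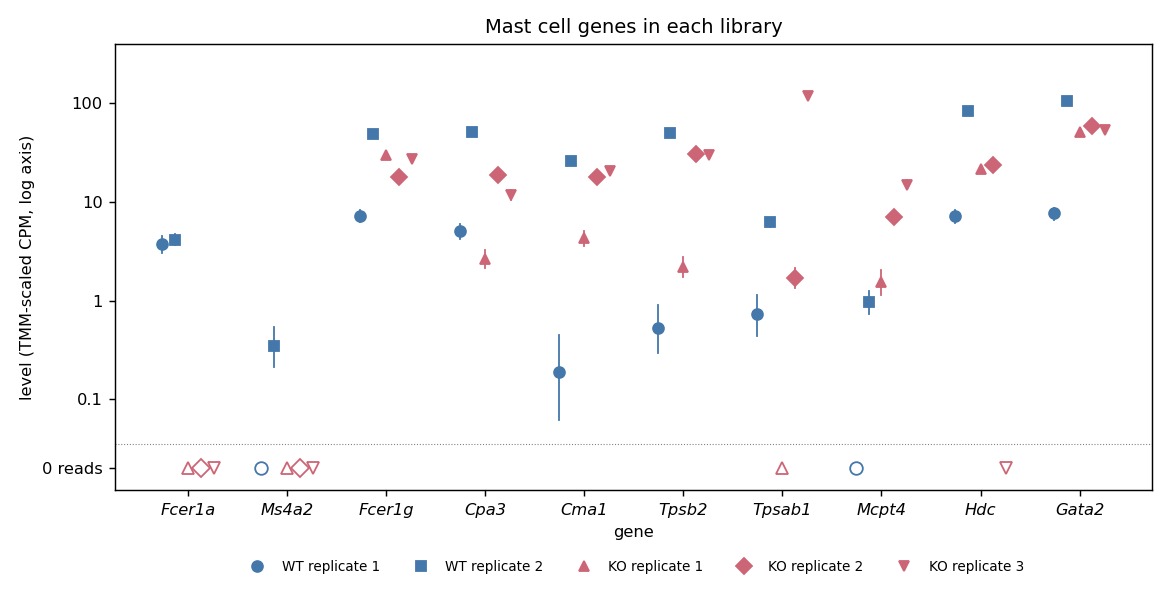
The log axis gives the TMM-scaled CPM of the 10 mast cell genes, set out by gene. Filled symbols are single libraries with 95% exact Poisson intervals, and open symbols below the dotted line mark 0 reads. Fcer1a lies at 3.73 and 4.16 CPM in the WT libraries and at 0 reads in the 3 KO libraries, and Mcpt4 at 0 reads and 0.971 CPM in WT and between 1.55 and 15.03 in KO.

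Mcpt4, a chymase of connective tissue mast cells, had the opposite order. It had 0 reads in WT replicate 1 (upper limit 0.140 CPM) and 56 in WT replicate 2 (0.971 CPM, 0.733 to 1.26). KO replicates 1, 2 and 3 had 49, 298 and 367 reads, or 1.55 (1.15 to 2.05), 7.03 (6.25 to 7.87) and 15.03 CPM (13.5 to 16.6). Every KO library was above both WT libraries, but the intervals of WT replicate 2 and KO replicate 1 overlapped. The WT mean was 0.485 ± 0.686 CPM (SD, n = 2), against 7.87 ± 6.78 in KO (SD, n = 3). Of the 9 genes that passed the filter on low counts, Mcpt4 was the 1 with all KO libraries above WT and Fcer1a the 1 with all below. Over all 14244 genes tested those patterns took 13.5% and 11.1%, and the members were chosen on this comparison.

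Cma1, the neighbouring chymase gene, did not separate the groups. It was at 0.190 and 25.8 CPM in WT replicates 1 and 2 and at 4.30, 17.8 and 20.8 in KO replicates 1, 2 and 3. The 2 WT libraries held its lowest and its highest value. Mcpt4 made up 3.62% of the reads of both chymases in WT replicate 2 (56 of 1546, 2.75 to 4.68). In KO replicates 1, 2 and 3 it made up 26.5% (20.3 to 33.5), 28.3% (25.6 to 31.1) and 42.0% (38.7 to 45.3). This share is taken within a library, so it does not depend on how libraries are scaled. It uses the same Mcpt4 reads on which the set was picked, so it is a description and no separate evidence. Its intervals cover counting error within a library only. WT replicate 1 had 5 reads of Cma1 and none of Mcpt4, which allows a share of up to 52.2%, so the share in WT rests on 1 library. The coding sequences of both chymases are 67.6% identical over 732 aligned bases, and the longest run they share is 27 bases. Windows of 50 bases of Mcpt4 transcripts matched another gene in 5.48% of cases, all in Cma2, a gene with 35 reads in WT replicate 2 and 0 in the other libraries.

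Tpsb2 and Tpsab1, the tryptase genes, parted in KO replicate 3. Tpsb2 was at 0.533 and 50.3 CPM in WT replicates 1 and 2 and at 2.21, 30.4 and 30.3 in KO replicates 1, 2 and 3. Tpsab1 read 0.723 and 6.26 CPM in WT, against 0 (upper limit 0.117), 1.70 and 118 in KO replicates 1, 2 and 3. The value of KO replicate 3 rested on 2890 reads. Tpsab1 made up 79.6% of tryptase reads there (78.3 to 80.9), against 57.6% of 33 reads in WT replicate 1 (39.2 to 74.5), 11.1% in WT replicate 2 (10.0 to 12.2), 5.29% in KO replicate 2 (4.16 to 6.61) and 0 of 70 reads in KO replicate 1 (up to 5.13%). Genes at 50 CPM or more and at least 10 times their next highest library, limits set after these values were seen, numbered 3 in KO replicate 3 and between 0 and 4 in the other libraries. Tpsab1 was 1 of those 3 genes. The coding sequences of both tryptases are 76.1% identical over 827 aligned bases. The longest run they share is shown because it bears on how reads could be assigned to one gene or the other. It has 39 bases, from coding base 199 of Tpsb2 and 301 of Tpsab1, with all letters shared.
Tpsb2 and Tpsab1: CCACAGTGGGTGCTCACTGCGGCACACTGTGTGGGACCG

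No window of 50 bases was shared between their annotated transcripts. The sources used here do not give the read length.

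Cpa3, the granule carboxypeptidase, was at 5.06 and 51.6 CPM in WT replicates 1 and 2 and at 2.65, 18.7 and 11.7 in KO replicates 1, 2 and 3. WT replicate 1 lay inside the range of the KO libraries and WT replicate 2 above it. Its WT mean was 28.3 ± 32.9 CPM (SD, n = 2), and its KO mean 11.01 ± 8.05 (SD, n = 3). Hdc, the histamine-forming enzyme, read 7.16 and 83.6 CPM in WT, against 21.6, 23.5 and 0 in KO. KO replicate 3 had 0 Hdc reads (upper limit 0.151 CPM), in the library with the highest Mcpt4 and Tpsab1. Hdc was 1 of 66 genes with no read in KO replicate 3 and at least 5 CPM in each of the other 4 libraries, a threshold set after its values were seen. The same count was 35 for WT replicate 1, 76 for WT replicate 2, 0 for KO replicate 1 and 1 for KO replicate 2.

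Gata2, the transcription factor, was at 7.65 and 106 CPM in WT replicates 1 and 2 and at 50.8, 58.6 and 54.3 in KO replicates 1, 2 and 3. The KO libraries were close to each other (54.6 ± 3.89, SD, n = 3) and lay between the WT libraries (56.9 ± 69.6, SD, n = 2). The 10 endothelial markers summed to 405 and 2830 CPM in WT and to 1860, 2580 and 1760 in KO, with the lowest and the highest value in the same 2 libraries as Gata2. The 8 members other than Fcer1g and Gata2 summed to 17.4 and 223 CPM in WT and to 32.3, 99.2 and 196 in KO. In KO replicate 3 most of this sum was Tpsab1. Without that gene the WT sums were 16.7 and 217 CPM, against 32.3, 97.5 and 77.7 for KO replicates 1, 2 and 3, so KO replicate 2 was then the highest of the KO libraries. What part endothelial RNA had in the Gata2 level was not tested.

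**Figure D2:**
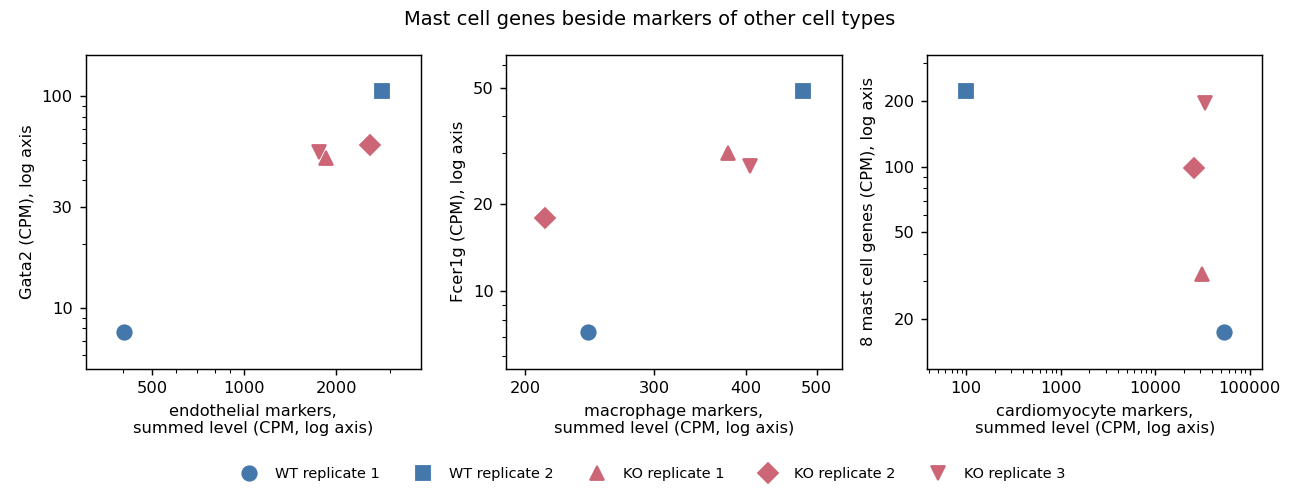
Gata2 against the summed level of 10 endothelial markers (left), Fcer1g against that of 12 macrophage markers (middle) and the summed level of 8 mast cell genes against that of 9 cardiomyocyte markers (right), all in TMM-scaled CPM on log axes. Each symbol is a library. WT replicate 2 has the highest Gata2 (106), Fcer1g (48.9) and mast cell sum (223) and the lowest cardiomyocyte sum (99).

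The makeup of mast cell gene reads, not adjusted for gene length, differed from library to library. Over the 8 members other than Fcer1g and Gata2 there were 457 reads in WT replicate 1, 12863 in WT replicate 2 and 1022, 4205 and 4788 in KO replicates 1, 2 and 3. Hdc took the largest share in WT replicate 1 (41.1%), WT replicate 2 (37.5%) and KO replicate 1 (66.8%). Tpsb2 did so in KO replicate 2 (30.7%) and Tpsab1 in KO replicate 3 (60.4%). Fcer1a took 21.4% in WT replicate 1 (17.8 to 25.5) and 1.87% in WT replicate 2 (1.64 to 2.11). In the KO libraries its absence allowed up to 0.360, 0.088 and 0.077%. These intervals cover counting error within a library only, not the spread between libraries. The set was picked on Fcer1a and Mcpt4, so the shares of these genes are given as a description. Mcpt4 took 0 of 457 reads in WT replicate 1 (up to 0.804%) and 0.435% in WT replicate 2 (0.329 to 0.565). In KO replicates 1, 2 and 3 it took 4.79% (3.57 to 6.29), 7.09% (6.33 to 7.9) and 7.66% (6.93 to 8.46).

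**Figure D3:**
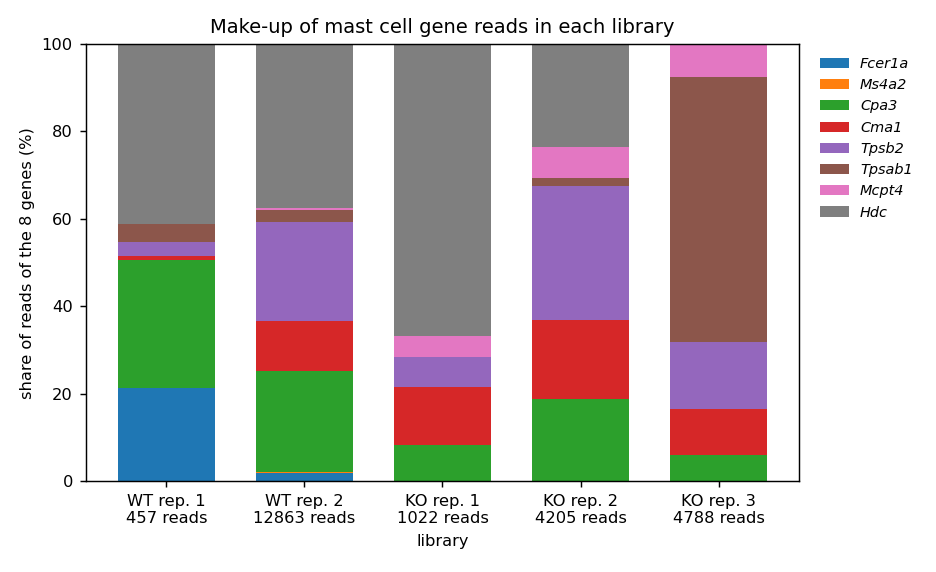
Share of each gene, in percent, in the summed reads of Fcer1a, Ms4a2, Cpa3, Cma1, Tpsb2, Tpsab1, Mcpt4 and Hdc, with 1 bar for each library and the number of reads under it. Fcer1a is seen only in the WT bars (21.4 and 1.87%), Tpsab1 fills 60.4% of the bar of KO replicate 3, and Hdc is absent from that bar.

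Per kilobase of the longest annotated transcript, Fcer1g had the highest mean level over the 5 libraries (38.4 ± 22.7 CPM per kb, SD, n = 5). Tpsb2 (17.6 ± 16.4), Gata2 (15.5 ± 9.79), Tpsab1 (13.2 ± 27.0), Cma1 (12.6 ± 10.1) and Cpa3 (12.4 ± 13.7) followed on the same scale. Hdc (6.01 ± 7.31), Mcpt4 (4.44 ± 5.67), Fcer1a (1.58 ± 2.17) and Ms4a2 (0.029 ± 0.065) were lower. No neighbours in this order differed by more than the larger of their SDs. The alpha and gamma chains, which assemble in 1 receptor, were closest per kilobase in WT replicate 1, at 3.74 and 10.6 CPM per kb.

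In the edgeR fit over all genes, fold changes of KO against WT are on the log2 scale and given with a standard error (SE), as a description. Mcpt4 stood at 3.99 (SE 2.13) and Tpsab1 at 3.51 (SE 2.84), while Fcer1a had a bound of -7.02. Hdc was at -1.59 (SE 1.90) and Cpa3 at -1.36 (SE 1.13). Cma1 (0.13, SE 1.59), Tpsb2 (-0.28, SE 1.66), Fcer1g (-0.17, SE 0.80) and Gata2 (-0.06, SE 0.94) were near the median of all genes, which was -0.01. Of the 9 members that passed the filter, 3 had a positive fold change, while 49.4% of all 14244 genes did. The quasi-likelihood test called 0 of these genes higher and 0 lower at an adjusted p of 0.05 (0% each, smallest adjusted p = 0.81), with 832 at an unadjusted p under 0.05. DESeq2 called 381 and limma-voom 0 on the same counts.

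Leaving out WT replicate 2 turned Fcer1g, Cpa3, Tpsb2, Hdc and Gata2 from negative to positive. Without it Cma1 stood at 6.20, Tpsb2 at 5.29, Gata2 at 2.83, Fcer1g at 1.79, Cpa3 at 1.12 and Hdc at 1.07, and Tpsab1 at 5.78. Without WT replicate 1 the same genes, Tpsab1 apart, stood between -2.5 (Hdc) and -0.90 (Cma1), and Tpsab1 at 2.64. Tpsab1 turned to -2.03 without KO replicate 3. Mcpt4 was positive in each fit that left out a library, between 2.97 without WT replicate 1 and a lower bound of 6.11 without WT replicate 2, where its only WT library had 0 reads. Fcer1a, as a bound against the floor, stood between -7.13 and -6.20 in these fits. The groups did not overlap for Mcpt4 or Fcer1a, so leaving out a library could not turn their sign. Among the 3 libraries whose titles share a code (WT replicate 1, KO replicates 1 and 2), which no label calls a batch, the bounds were -6.52 for Fcer1a and 5.23 for Mcpt4. That subset and each fit without a WT library hold 1 WT library, so they contain no spread between WT libraries.

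**Figure D4:**
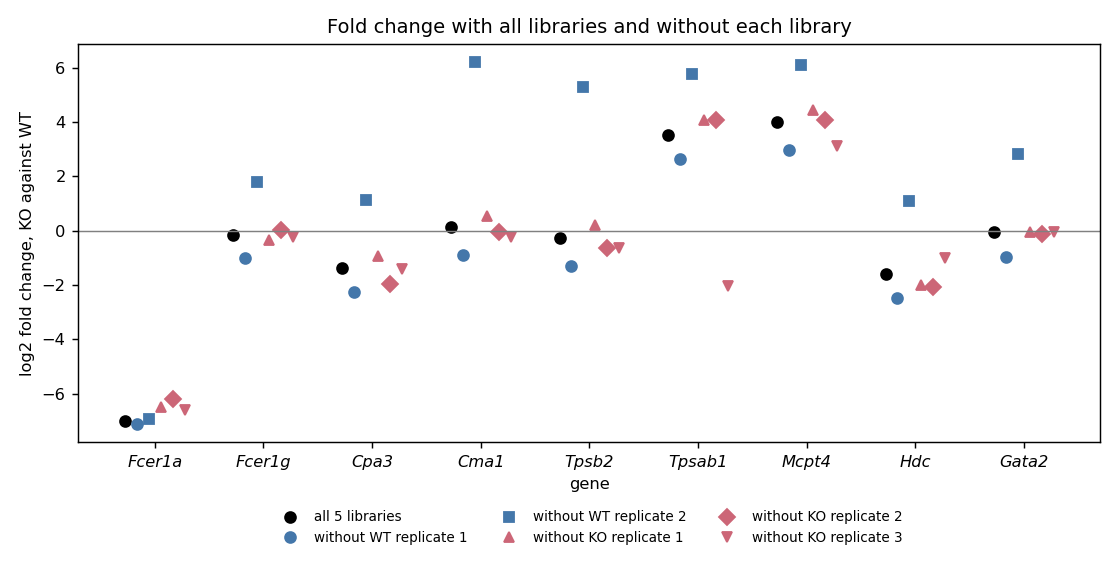
Log2 fold change of KO against WT for the 9 genes that passed the filter on low counts, with all 5 libraries (black) and without each library in turn. Values of Fcer1a, and of Mcpt4 without WT replicate 2, are bounds against a floor of 3 reads. Fcer1a lies between -7.13 and -6.20, Mcpt4 between 2.97 and 6.11 and Cma1 between -0.90 and 6.20.

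Other genes of mast cells were read from lists set by function. Genes named here are among the 3 most abundant of their list unless stated. The quasi-likelihood test called none of them in either direction. Medians are log2 fold changes, with genes absent from a group placed at their bound, and each is read against the all-gene median of -0.01. Likewise, counts of positive genes stand beside 49.4% of all genes tested, and counts of genes with every KO library above or below WT beside 13.5% and 11.1%. Of 16 genes for receptors and growth factors 10 passed the filter, 4 of them positive, with a median of -0.20. Kitl, the stem cell factor that mast cells need, read 16.9 and 39.5 CPM in WT, against 42.4, 42.7 and 22.5 in KO. Granule storage genes had 5 of 12 positive and a median of -0.34. Vamp8, a membrane fusion protein of secretory granules, was the 1 of the 12 with every KO library (104 to 127 CPM) below WT (163 and 201), and Hpse, which cleaves heparan sulfate, the 1 with every KO library above, both near the shares of all genes. Among 23 genes of IgE receptor signalling 21 passed, 11 of them positive, with a median of 0.03. Fyn, the most abundant of these, overlapped between the groups (37.7 and 79.7 CPM in WT, against 35.4, 119 and 112 in KO). Gab2, an adaptor downstream of the receptor, was 1 of 3 among the 21 with every KO library (62.3 to 120 CPM) above WT (14.04 and 54.1), a share near the 13.5% of all genes. Pik3cd was another, and Rasgrp4 was the 1 with every KO library below. Hpse, Pik3cd and Rasgrp4 were named after their values were seen. Vamp8 and Gab2 both had an edgeR adjusted p of 0.81.

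Genes that make leukotrienes and prostaglandins had 3 of 9 positive and a median of -0.57, and none separated the groups. The 12 transcription factor genes tested had 7 positive and a median of 0.09. Lmo2, a partner of GATA factors that endothelium also expresses, read 33.8 and 301 CPM in WT and lay between 76.9 and 223 in KO. Receptors that pair with the gamma chain had 2 of 7 positive and a median of -0.42. Without WT replicate 2 the medians became 2.46 for receptors and growth factors, 1.21 for granule storage, 1.53 for IgE signalling, 0.12 for lipid mediators, 0.81 for transcription factors and 1.13 for gamma chain partners. Without WT replicate 1 that of IgE signalling became -0.34. Leaving out KO replicate 2 gave 0.13 for granule storage, -0.10 for IgE signalling, -0.14 for transcription factors and 0.05 for gamma chain partners. Transcription factors also turned to -0.03 without KO replicate 1, and IgE signalling to -0.15 without KO replicate 3.

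Some other proteases and receptors of mast cells were found in few libraries. Ctsc (43 to 105 CPM) and Dpp7 (2.85 to 26.95 CPM), the 2 most abundant of these proteases, had reads in every library. Of 11 other protease genes 4 passed the filter, 1 of them positive, with a median of -0.51 that turned to 1.34 without WT replicate 2 and to 0.28 without KO replicate 1. Mcpt2, a chymase of mucosal mast cells, had 2127 reads in WT replicate 2 (36.9 CPM), 51 in KO replicate 1 (1.61 CPM) and 0 in the other 3 libraries. Il1rl1, the receptor for interleukin 33, named after its values were seen, had reads in the same 2 libraries as Mcpt2 (275 and 62) and 0 elsewhere. Mrgprb2, a receptor of connective tissue mast cells for peptides and drugs, was also named after its values were seen. It had 0 reads in both WT libraries and 2, 47 and 82 in KO replicates 1, 2 and 3 (0.063, 1.109 and 3.36 CPM). The KO mean of 1.51 CPM was at least 42.3-fold above a floor of 3 reads over the WT group, which does not hold for KO replicate 1 alone. The gene was not called (edgeR adjusted p = 0.81). Mrgprb2, Mcpt4, Cma1 and Tpsab1 were each lowest in replicate 1 and highest in replicate 3 among the KO libraries. They were grouped after their values were seen, and other mast cell genes did not follow this order. Kit had the reverse order (53.7, 21.6 and 7.82 CPM in KO replicates 1, 2 and 3). Hdc had 0 reads in KO replicate 3, and Cpa3 and Tpsb2 were highest in KO replicate 2. For Mrgprb2 the value of KO replicate 1 rests on 2 reads. Of 5 genes for histamine receptors and breakdown, 3 had no read in any library, and Hnmt, which methylates histamine, was the 1 that passed the filter. Its log2 fold change was 1.15 with all libraries and 0.15 without WT replicate 2, the library where it had 0 reads. Without WT replicate 1 no WT read of Hnmt was left, and its value of 7.88 is a lower bound.

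Markers of other cells were not called either. Interstitial markers had 9 of 10 positive (median 1.10), with 6 of 10 above WT in every KO library, and endothelial markers 8 of 10 (median 0.73), with 4 of 10 above, against 49.4% positive and 13.5% above among all genes. The interstitial median was 2.23 and the endothelial median 2.75 without WT replicate 2, and 0.98 and -0.04 without WT replicate 1. With the trend over transcript length removed they were 0.50 and 0.09, where the all-gene median was -0.27. Macrophage markers had 5 of 11 positive (median -0.19) and cardiomyocyte markers 6 of 9 (median 0.14). These macrophage and cardiomyocyte medians became 1.10 and -0.85 without WT replicate 2, 8.59 for cardiomyocytes without WT replicate 1, 0.22 for macrophages without KO replicate 2 and -0.01 for cardiomyocytes without KO replicate 1. Basophil markers summed to between 0 and 3.30 CPM, with 3 of 7 tested and 2 positive (median 0.33, -0.63 without WT replicate 1). Red blood cell and lymphocyte markers had 1 gene each that passed the filter (-1.73, 2.45 without WT replicate 1, and 0.84). The part of these cells in the mast cell gene levels was not tested.

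The genes most like Fcer1a and Mcpt4 over the 5 libraries were found by the root mean square difference of centred log2 levels among 13961 genes with a mean of at least 20 reads. Oprl1, the nociceptin receptor (0.51), Khdrbs2 (0.60) and Trim9 (0.61) were nearest to Fcer1a, and all 3 had reads in both WT libraries and in no KO library. Ninl (0.34), Dgkk, a diacylglycerol kinase (0.41), and Alox8, a lipoxygenase (0.52), were nearest to Mcpt4. The ranking used the levels of Fcer1a and Mcpt4 themselves, so genes near to them had to share their patterns. Cma1 was the member most like Mcpt4, with a difference of 1.56, and Tpsb2 the next with 2.07. Fcer1a was the least like it, with 6.83. The set was picked because Fcer1a and Mcpt4 differed in opposite ways, so a large distance between them follows from that choice. To Fcer1a the nearest member was Ms4a2 (3.02), and the next was Cpa3 (3.73). Members were compared without the minimum on reads, and Ms4a2 had 20 reads in WT replicate 2 and 0 in every other library.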

How the data were processed

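RNA of mouse mitral valve leaflets was column-purified, treated with DNase and made into SMART-Seq v4 libraries, which do not keep the strand, per the labels' protocols. The submitters' processing notes name FastQC 0.11.5, cutadapt 1.11, HTSeq and DESeq2 with mm10 (GRCm38), and the sources used here give no aligner. Raw counts per gene were deposited in 1 table. It also holds, per the file headers, the authors' mean signal, log2 fold change with its standard error, test score and p-values, which were not used.

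Members and lists were chosen with earlier results of these data known. Counts were analysed in R 4.3.3 with edgeR 4.0.16 (filterByExpr, TMM, robust quasi-likelihood test, Benjamini-Hochberg adjustment over 14244 of 17148 genes with a read, called under 0.05). DESeq2 1.42.0 and limma 3.58.1 served as alternatives. The fit was tested on simulated data. SE is the fold change divided by the root of F. Floors are 3 reads over a group. Replicates were numbered by accession and pair no samples. Named genes were the 10 members, Ift88, Kit, Mcpt8, genes among the 3 most abundant of each of 15 lists, and the 3 genes nearest to Fcer1a and to Mcpt4. Exceptions are stated. Of 168 entries, members included, 167 were matched. Promoters came from RefSeq (GRCm38.p6), and coordinates, lengths and transcripts from GENCODE M21.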

Additional observations from a re-analysis of the deposited data

How the results depend on the processing

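The count of genes called was 0 with all 5 libraries and between 0 and 245 in the fits that left out a library, with 245 without WT replicate 1 and 0 without any other. DESeq2 called 381. The cause was not tested. Size factors, library totals, other filters on low counts, the length trend removed and limma-voom gave 0. Of 115 values of the 9 members under alternatives, 94 moved by less than the spread within groups and 17 changed sign, in 7 genes. Fcer1a and Mcpt4 were picked on the KO against WT comparison, and their groups did not overlap. Leaving out a library could therefore not turn their sign, which they kept in every alternative that gave a value. Fcer1a gave none with a filter of 1 CPM in 3 libraries, which it could not pass, nor with DESeq2, whose fitted value for a group without reads is no bound. The median of all genes moved from -0.01 to 0.10 with library totals and to -0.27 with the length trend removed. There Hdc stood at -2.13, Fcer1g at 0.11, Cma1 at 0.36 and Gata2 at -0.31. Of 177 list medians 34 changed sign, in 12 of 15 lists. No paired analysis was possible because the library titles give no replicate numbers that pair WT with KO. With 2 WT libraries, and with 5 and 14 reads of Cma1 and Tpsb2 in WT replicate 1, the few reads of these genes, not the library's total, limit what the shares in WT can show.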
